A study of Glycine max with 48 samples.

Results

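The 8 genes described here belong to the soybean (Glycine max) pathway that reads day length and sets flowering time: E1, E1La, E1Lb, FT2a, FT5a, PHYA3 (E3), PHYA2 (E4) and Dt1 (TFL1b). They were chosen by identifier, as 8 of the 57147 identifiers listed for each flower organ: GLYMA_06G207800 (E1), GLYMA_04G156400 (E1La), GLYMA_04G143300 (E1Lb), GLYMA_16G150700 (FT2a), GLYMA_16G044100 (FT5a), GLYMA_19G224200 (PHYA3, here E3), GLYMA_20G090000 (PHYA2, here E4) and GLYMA_19G194300 (Dt1). The deposited tables carry identifiers without gene names, so the names come from the choice of the genes and not from the tables.

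RNA was sequenced from sepals, anthers, ovaries and stigmas of cultivar Magellan, with 3 libraries for each of 4 treatments in each of 4 organs, 48 libraries in all. Combined stress meant 38 °C days, 28 °C nights and 30% of the water needed for transpiration. Heat meant 38 °C days and 28 °C nights with 100% of that water. Water deficit meant 28 °C days and 24 °C nights with 30% of it, and control plants had 28 °C days and 24 °C nights with 100% of it. All plants had been inoculated with Bradyrhizobium japonicum and grown under 12 h of light and 12 h of dark, so day length did not differ between groups and was not tested. Treatments began at the first open flower, after 16 to 18 days of growth at 28 °C by day, so every flower came from a plant already flowering. Each library pooled 10 to 15 flowers from 8 to 10 plants. The 4 treatments were held in 4 growth chambers, so the effects of chamber and of treatment cannot be told apart.

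In soybean, the phytochrome A photoreceptors E3 and E4 sense light in the leaf and promote transcription of E1 in long days. E1 and its close copies E1La and E1Lb encode legume-specific proteins with a B3-like domain that repress FT2a and FT5a. FT2a and FT5a encode relatives of FLOWERING LOCUS T, mobile proteins made in leaves that start flowering at the shoot tip, and Dt1 encodes a relative of TERMINAL FLOWER 1 that keeps the stem tip vegetative.

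Levels were deposited as FPKM (fragments per kilobase of transcript length, divided by library depth), which allows genes to be compared per unit of length. Of the 8 genes, 5 were below 1 FPKM in all 16 group means: E1, E1La, E1Lb, FT5a and Dt1. FT2a reached 1 FPKM in 3 groups, all of them sepals. E3 reached it in 14 groups and was below it only in water-deficit and control anthers, at 0.862 ± 0.346 and 0.721 ± 0.199 FPKM (SD, n = 3 each). E4 was above 1 FPKM in all 16 groups and in all 48 libraries. The number of mapped fragments per library is unknown, so no counting interval can be given. Library depth relative to the shallowest of the 48 was estimated at 1.0 to 1.67 from the commonest ratio of low FPKM values between libraries, a ratio that 7.04 to 21.0% of the low genes compared shared. The 4 organs were deposited as separate tables, and levels set side by side across organs take the tables to be on 1 scale. Between 21198 and 31827 identifiers per library reached 1 FPKM, the fewest in anthers. Organ identity could not be checked against named marker genes, because no identifier matched the reference gene table (0 of 57147).

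The day-length repressors were close to absent from the tables. E1La and E1Lb were listed at 0 in all 48 libraries, as were 7212 identifiers in all (12.6%). E1 was listed at 0 in 47 libraries and had 0.0714 FPKM in replicate 1 of the combined-stress stigma. Dt1 was above 0 in 4 libraries, all sepals: it had 0.130 FPKM in combined-stress replicate 1, 0.0617 FPKM in heat replicate 2, 0.0869 FPKM in water-deficit replicate 2 and 0.0642 FPKM in control replicate 2. Each of the 4 sepal groups thus held 1 library with Dt1 above 0 and 2 libraries at 0. These Dt1 values were 2 to 4 times the smallest step seen for the gene (within 0.1 of a step); whether a step is 1 fragment is not known. Whether RNA was absent where a value is 0 cannot be told from these tables. Some genes averaging 5 FPKM or more over all libraries of an organ were also listed at 0 in some library. They were 273 of 19058 such genes in sepals, 264 of 13686 in anthers, 249 of 19861 in ovaries and 261 of 19373 in stigmas. Those averages span all treatments, so such a 0 may also be a true low value in 1 treatment. E1La and E1Lb gave no values to compare between treatments, and E1 and Dt1 stood below the level filter used for the tests. With no filter, limma gave Dt1 in sepals a difference from control of 0.03 under combined stress (95% interval -0.11 to 0.17 on the log2(FPKM + 1) scale, adjusted p = 0.821), and E1 in stigmas one of 0.03 (-0.06 to 0.13, adjusted p = 0.661), each resting on 1 library per group above 0 or fewer.

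The florigen genes FT2a and FT5a were above 0 in all 12 sepal libraries and listed at 0 in all 36 libraries of the other 3 organs. In all, 15 of the 57147 identifiers (0.0262%) had that pattern, and FT2a and FT5a were 2 of them. The pattern describes what these 2 genes showed in the same data, so its rarity is not a test of sepal specificity. FT2a had 0.951, 1.38 and 1.84 FPKM in combined-stress sepals and 0.676, 2.36 and 2.39 FPKM in heat sepals. It had 0.837, 0.774 and 1.88 FPKM in water-deficit sepals, against 1.01, 0.468 and 0.792 FPKM in control sepals. Both heat replicates 2 and 3 lay above every control library, while heat replicate 1 lay inside the control range, so every stress group overlapped the control. FT5a was lower, with 0.473, 0.572 and 0.401 FPKM in combined-stress sepals, 0.404, 0.168 and 0.108 FPKM in heat sepals and 0.512, 0.526 and 0.169 FPKM in water-deficit sepals, against 0.156, 0.350 and 0.432 FPKM in control sepals. FT5a also overlapped the control in each stress group, and its values were 4 to 20 of its smallest steps. It stood below the level filter of the tests that follow. In a limma fit with no filter on low values, FT5a differed from control sepals on the log2(FPKM + 1) scale by 0.18 under combined stress (95% interval -0.12 to 0.48, adjusted p = 0.421), by -0.10 under heat (-0.40 to 0.20, adjusted p = 0.726) and by 0.09 under water deficit (-0.21 to 0.39, adjusted p = 0.857).

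**Figure D1:**
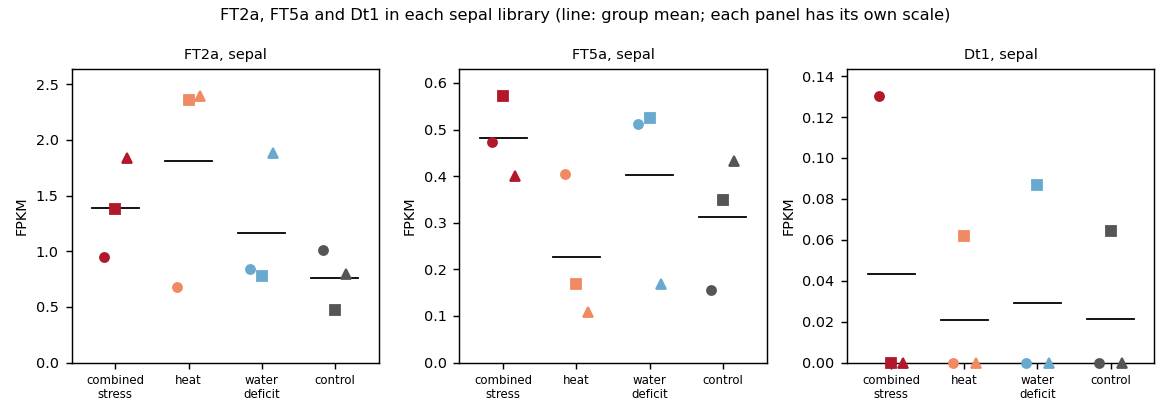
FPKM of FT2a, FT5a and Dt1 (vertical axes, a separate scale per panel) in each of the 12 sepal libraries, by treatment; the symbol marks the replicate (circle 1, square 2, triangle 3) and the line the group mean. FT2a spans 0.468 to 2.39 FPKM, FT5a 0.108 to 0.572 FPKM, and Dt1 is above 0 in 1 library of each treatment.

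Each organ was tested with limma on log2(FPKM + 1), and a gene was called where its Benjamini-Hochberg adjusted p over all genes tested was under 0.05. The filter kept genes with a mean of at least 1 FPKM in at least 1 of the organ's 4 groups; among the 8 genes it kept FT2a, E3 and E4 in the sepal and E3 and E4 in the other organs, which gives 9 tests per comparison over the 4 organs. A fold change on this scale understates the change of a gene with low FPKM. In sepals FT2a differed from control by 0.44 under combined stress (95% interval -0.20 to 1.08, adjusted p = 0.301 in limma), by 0.62 under heat (-0.02 to 1.26, adjusted p = 0.199) and by 0.28 under water deficit (-0.37 to 0.92, adjusted p = 0.730). None of these passed the threshold. Without heat replicate 1, the heat difference of FT2a was 0.96 with an adjusted p of 0.0473 in limma. Of the 17 alternatives run for this difference, the other 16 left it uncalled, with adjusted p up to 0.4445.

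The phytochrome A genes E3 and E4 were measured in every library, and E4 was the higher of the pair in 48 of 48. By group mean as deposited, both stood highest in sepals and lowest in anthers. For E4, combined-stress anthers overlapped control stigmas. E4 in combined-stress sepals was 18.9, 21.5 and 22.3 FPKM, in heat sepals 22.1, 24.4 and 24.8 FPKM and in water-deficit sepals 18.5, 17.4 and 17.6 FPKM, against 20.3, 20.9 and 13.9 FPKM in control sepals. The 12 sepal libraries all lay above the 36 libraries of the other organs, whose highest E4 value was 13.0 FPKM. The share of all genes that separate sepals in this way is not given here, so the pattern is not shown to be unusual. E4 averaged 9.52 ± 1.17 FPKM in control ovaries, 6.64 ± 0.270 FPKM in control stigmas and 2.87 ± 0.373 FPKM in control anthers (SD, n = 3 each). In control flowers its mean exceeded that of 88.1% of identifiers in sepals, 77.9% in ovaries, 72.1% in stigmas and 72.7% in anthers.

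E3 in combined-stress sepals was 7.98, 7.31 and 7.46 FPKM, in heat sepals 8.55, 9.97 and 8.77 FPKM and in water-deficit sepals 9.72, 10.2 and 8.97 FPKM, against 12.0, 11.9 and 8.06 FPKM in control sepals. All 12 sepal values were above the highest E3 value of any other organ, 6.33 FPKM in a heat stigma, again without the share of all genes doing so. E3 averaged 4.13 ± 0.353 FPKM in control stigmas and 3.86 ± 0.689 FPKM in control ovaries (SD, n = 3 each). In control flowers the mean of E3 exceeded that of 80.0% of identifiers in sepals, 63.1% in stigmas, 61.0% in ovaries and 56.3% in anthers.

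**Figure D2:**
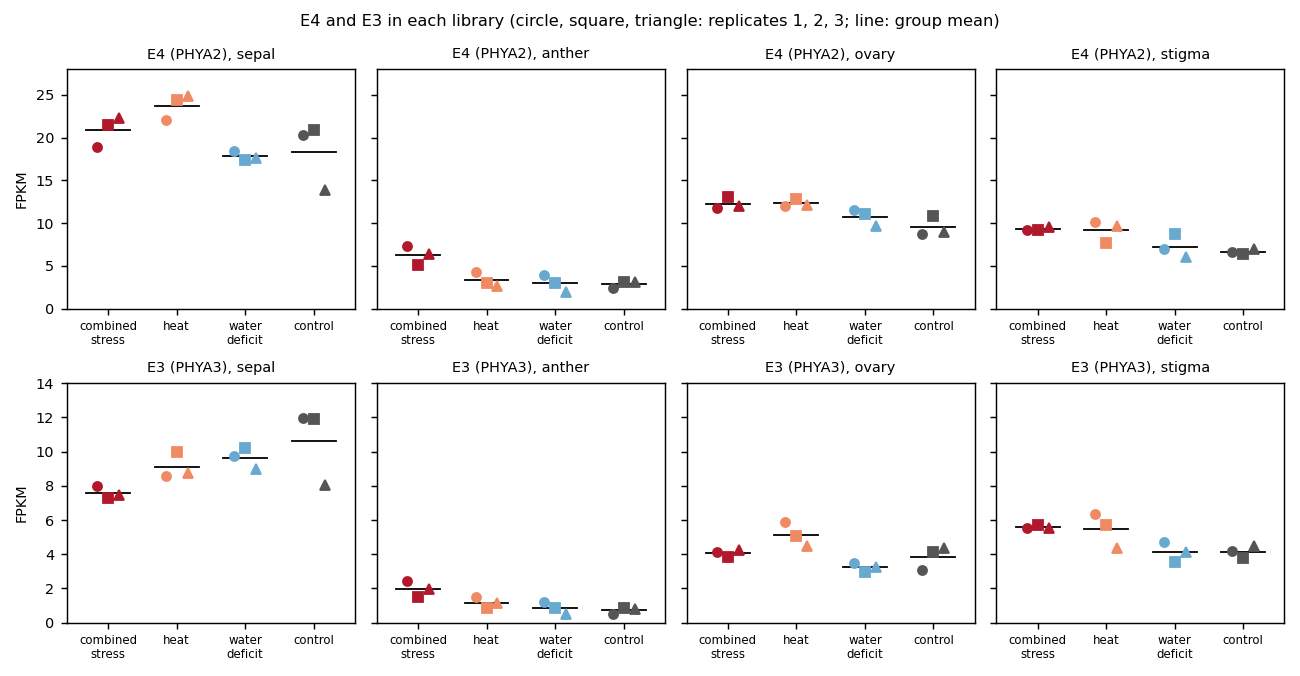
FPKM of E4 (upper row) and E3 (lower row) on linear vertical axes from 0, in every library of each organ by treatment; the symbol marks the replicate (circle 1, square 2, triangle 3) and the line the group mean. Group means are highest in sepals and lowest in anthers for both genes, and for E4 combined-stress anthers overlap control stigmas. E3 in combined-stress sepals (7.31 to 7.98 FPKM) lies below all 3 control sepals (8.06 to 12.0 FPKM).

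Ranked over the 16 groups, the E4 means ran from heat sepals at 23.8 ± 1.49 FPKM to control anthers at 2.87 ± 0.373 FPKM (SD, n = 3 each). Neighbouring groups in that order overlapped except at 3 places: between water-deficit sepals (17.8 ± 0.565 FPKM) and heat ovaries (12.3 ± 0.469 FPKM), between combined-stress ovaries (12.3 ± 0.660 FPKM) and water-deficit ovaries (10.7 ± 0.989 FPKM), and between combined-stress anthers (6.26 ± 1.14 FPKM) and heat anthers (3.31 ± 0.820 FPKM). The E3 means ran from control sepals at 10.7 ± 2.25 FPKM to control anthers at 0.721 ± 0.199 FPKM. Breaks without overlap in the E3 order lay on either side of combined-stress sepals (7.58 ± 0.354 FPKM) and on either side of combined-stress anthers (1.98 ± 0.459 FPKM). The sepal was the only organ in which the control was the highest of the 4 groups for E3.

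Between control organs, both genes were called in 5 of 6 pairs. On the log2(FPKM + 1) scale, control anthers minus control sepals was -2.75 for E3 and -2.31 for E4 (limma adjusted p = 1.70e-08 and 3.33e-08, where 82.0% of the 36382 genes tested were called). Control ovaries minus control sepals was -1.25 for E3 and -0.87 for E4 (adjusted p = 4.14e-05 and 0.000372, 61.3% of genes called). Control stigmas minus control sepals was -1.17 for E3 and -1.32 for E4 (adjusted p = 9.80e-05 and 1.76e-05, 56.1% called). Anthers minus ovaries was -1.495 for E3 and -1.44 for E4 (adjusted p = 3.44e-06 and 2.04e-06, 82.8% called), and anthers minus stigmas was -1.58 for E3 and -0.99 for E4 (adjusted p = 2.39e-06 and 6.99e-05, 80.7% called). Stigmas and ovaries, where 25.5% of genes were called, differed by 0.09 for E3 (95% interval -0.28 to 0.45, adjusted p = 0.743) and by -0.46 for E4 (-0.79 to -0.12, adjusted p = 0.0483), stigma minus ovary. That E4 call was lost in each of 7 alternatives run, with adjusted p 0.0584 to 0.324 in limma, including without replicate 1, 2 or 3. When libraries were rescaled by the median of their gene ratios, E4 in anthers was no longer below stigmas (0.27, adjusted p = 0.130) and differed from ovaries by -0.09 (adjusted p = 0.612), while E3 in anthers stayed below both. In tissue RNA, fewer cells of a type and less RNA per cell cannot be told apart.

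Water deficit alone gave no call among the 9 tests of these genes in limma, none had an unadjusted p under 0.05, and adjusted p ran from 0.730 to 1.0. The share of all genes called was itself small, at 0.208% in sepals, 0.00351% in anthers, 0.234% in ovaries and 0.164% in stigmas. The largest of these differences in the phytochrome genes was in ovaries, where E3 had 3.46, 2.98 and 3.27 FPKM under water deficit, against 3.08, 4.12 and 4.38 FPKM in control. The groups overlapped, and the log2 difference was -0.19 (95% interval -0.47 to 0.10).

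Heat alone gave 1 call in 9 tests, with 5 at an unadjusted p under 0.05 in limma. Over all genes tested, 9053 of 33179 in sepals and 9679 of 28529 in anthers had an unadjusted p that low. In ovaries 10451 of 33336 did, and in stigmas 10221 of 33609. The gene called was E4 in ovaries, where heat ovaries had 12.0, 12.9 and 12.1 FPKM, against 8.71, 10.9 and 8.98 FPKM in control ovaries. All 3 heat ovaries were above all 3 control ovaries, and the log2 difference was 0.35 ± 0.10 (SE, adjusted p = 0.0341 in limma, where 16.8% of genes were called). The call was lost without control replicate 1 or 3, or without any 1 of the heat replicates, at log2 differences of 0.29 to 0.36 and adjusted p of 0.0658 to 0.121. E3 differed by 0.34 in ovaries (95% interval 0.05 to 0.62, adjusted p = 0.101).

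E4 was 10.1, 7.66 and 9.68 FPKM in heat stigmas, against 6.61, 6.39 and 6.93 FPKM in control stigmas. Those groups did not overlap either, with a log2 difference of 0.40 ± 0.13 (SE, adjusted p = 0.0630 in limma, 13.9% of genes called), which was called without heat replicate 2 (0.51, adjusted p = 0.0406), without water-deficit replicate 2 (0.40, adjusted p = 0.0367) and after the median-of-ratios rescaling (0.39, adjusted p = 0.0436). In heat sepals E4 lay above all 3 control sepals, at a log2 difference of 0.37 ± 0.13 (SE, adjusted p = 0.0958, 11.3% of genes called). In anthers, with 18.5% of genes called, E4 differed by 0.14 (adjusted p = 0.679, and -0.08 after rescaling) and E3 by 0.32 (adjusted p = 0.275). As deposited, E4 was thus called under heat in ovaries alone, and its heat difference was not shown to differ between any pair of organs. After rescaling, a call among these genes appeared for the heat difference of anther over sepal.

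Combined stress gave 5 calls in 9 tests, with 6 at an unadjusted p under 0.05 in limma. Over all genes tested, 12544 of 33179 in sepals and 18983 of 28529 in anthers had an unadjusted p that low. In ovaries 13154 of 33336 did, and in stigmas 12887 of 33609. The calls were 1 of 3 in sepals, 2 of 2 in anthers, 1 of 2 in ovaries and 1 of 2 in stigmas, where 24.1, 62.4, 27.5 and 26.0% of all genes tested were called. In anthers both genes rose as deposited. E4 was 7.35, 5.07 and 6.37 FPKM in combined-stress anthers, 4.23, 3.05 and 2.65 FPKM in heat anthers and 3.96, 2.95 and 1.96 FPKM in water-deficit anthers, against 2.44, 3.08 and 3.09 FPKM in control anthers. E3 was 2.44, 1.52 and 1.99 FPKM in combined-stress anthers, 1.47, 0.847 and 1.15 FPKM in heat anthers and 1.21, 0.862 and 0.517 FPKM in water-deficit anthers, against 0.494, 0.867 and 0.801 FPKM in control anthers. For both genes the 3 combined-stress anthers lay above the other 9. The share of all genes in that order is not given here. Of all genes tested in anthers, 51.8% were called higher than control under combined stress, 51.4% higher than water deficit and 25.2% higher than heat.

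On the log2 scale, combined stress exceeded control in anthers by 0.90 ± 0.21 for E4 and by 0.79 ± 0.20 for E3 (SE, adjusted p = 0.00398 and 0.00519 in limma). These calls sat in an organ where most genes moved. Of the 28529 genes tested in anthers 62.4% were called in either direction and 51.8% were called higher, and the median gene moved by 0.61. Genes enriched in anthers (1757 genes, chosen from these data by an anther mean of 5 FPKM or more and 8 times the mean of each other organ or more) held 32.4, 40.9 and 30.5% of summed FPKM in combined-stress anthers, against 60.3, 55.3 and 54.2% in control anthers. After median-of-ratios rescaling the median gene moved by 0.04, and the genes called were 4198 higher and 5905 lower, compared with 14766 higher and 3044 lower as deposited. E4 then differed by 0.26 (adjusted p = 0.193) and E3 by 0.35 (adjusted p = 0.101), neither of them called. When those genes were removed and every library was rescaled to its remaining FPKM, a setting chosen after seeing the data, E4 differed by 0.56 (adjusted p = 0.0396) and E3 by 0.67 (adjusted p = 0.0352). The part of the anther-enriched share in these calls was not tested further.

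**Figure D3:**
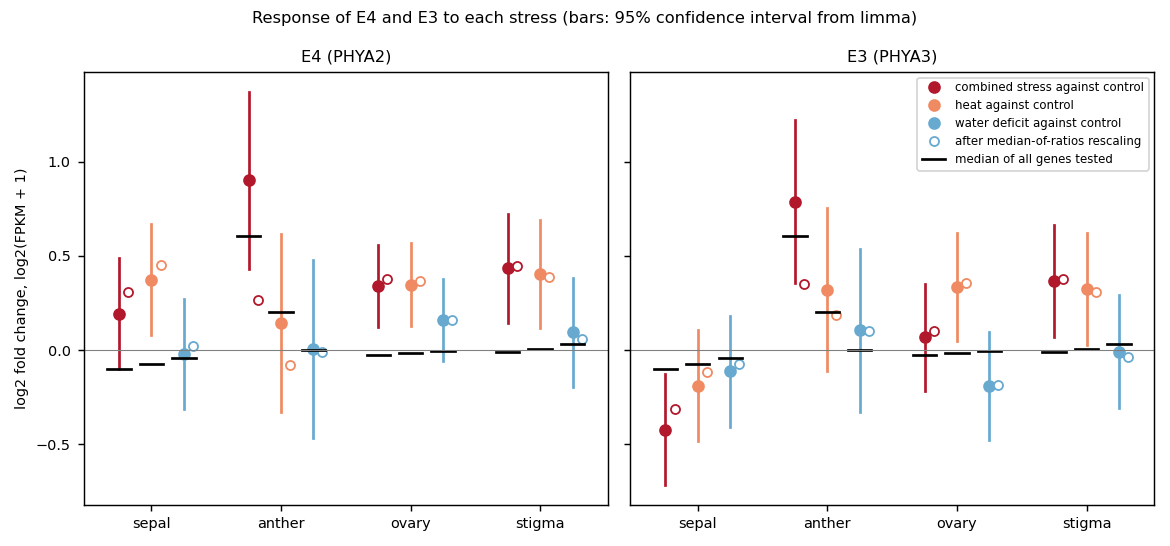
Log2 differences from control, on the log2(FPKM + 1) scale, of E4 and E3 in each organ under each stress: filled points with 95% intervals for FPKM as deposited, open points after median-of-ratios rescaling, and short black lines for the median of all genes tested. In combined-stress anthers both filled points stand at 0.90 (E4) and 0.79 (E3), near a median of 0.61; in combined-stress sepals E3 stands at -0.42.

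In anthers, combined stress also exceeded heat for E4, by 0.76 ± 0.21 (SE, adjusted p = 0.0219 in limma, 33.8% of genes called), and for E3 by 0.47 (adjusted p = 0.0853). The E4 call was lost without heat replicate 2 or 3 or combined-stress replicate 1 or 3 (0.65 to 0.74, adjusted p = 0.0595 to 0.0818), and after rescaling (0.35, adjusted p = 0.151). Against water-deficit anthers, combined stress was higher by 0.90 for E4 (adjusted p = 0.00443) and by 0.68 for E3 (adjusted p = 0.0113), where 61.0% of genes were called; E3 was lost without water-deficit replicate 3 (0.54, adjusted p = 0.0517), and after rescaling the differences were 0.27 for E4 (adjusted p = 0.196) and 0.25 for E3 (adjusted p = 0.259).

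In ovaries and stigmas, E4 was called higher under combined stress and E3 was not called. Whether E4 and E3 differed in response was not tested. E4 was 11.7, 13.0 and 12.1 FPKM in combined-stress ovaries, all 3 above the control ovaries given above. The log2 difference was 0.34 ± 0.10 (SE, adjusted p = 0.0255 in limma, 27.5% of genes called), lost without control replicate 1 or 3 or combined-stress replicate 2 (0.29 to 0.31, adjusted p = 0.0810 to 0.0939). E3 was 4.10, 3.86 and 4.23 FPKM in combined-stress ovaries and fell inside the control range, with a log2 difference of 0.07 (95% interval -0.22 to 0.35, adjusted p = 0.736).

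In combined-stress stigmas E4 was 9.22, 9.23 and 9.50 FPKM, again above all 3 control stigmas, with a log2 difference of 0.43 ± 0.13 (SE, adjusted p = 0.0308, 26.0% of genes called). That call was lost when any 1 of the 6 control or combined-stress stigma libraries was left out (0.41 to 0.46, adjusted p = 0.0525 to 0.0819), although the direction held. E3 was 5.56, 5.73 and 5.53 FPKM in combined-stress stigmas, against 4.17, 3.76 and 4.46 FPKM in control stigmas. The groups did not overlap, and the log2 difference was 0.37 (95% interval 0.07 to 0.66, adjusted p = 0.0682; without heat replicate 3 the adjusted p was 0.0468). The anther-enriched genes held 0.502, 0.958 and 1.29% of summed FPKM in combined-stress stigmas, against 4.61, 2.27 and 1.78% in control stigmas. With those genes removed, E4 was still called (adjusted p = 0.0318) and E3 was not (adjusted p = 0.0720).

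In sepals E3 was called lower under combined stress and E4 was not called, with no test of the difference between E3 and E4. E3 in the 3 combined-stress sepals lay below all 3 controls, at a log2 difference of -0.42 ± 0.13 (SE, adjusted p = 0.0400 in limma), where 24.1% of genes were called. The call did not hold without control replicate 1 or 2, water-deficit replicate 1 or 2, heat replicate 3 or any 1 of the combined-stress replicates (-0.46 to -0.33, adjusted p = 0.0507 to 0.132), and after rescaling it was -0.31 (adjusted p = 0.117). Control replicate 3, the lowest control for both phytochrome genes, had 2.29% of its summed FPKM in anther-enriched genes, compared with 0.363 and 0.567% in the other controls, and without it the E3 difference was -0.59 (adjusted p = 0.00281). With the anther-enriched genes removed from every library, or with no filter on low values, E3 was not called. E4 in combined-stress sepals overlapped the control, with a log2 difference of 0.19 (95% interval -0.10 to 0.49, adjusted p = 0.320).

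Outside anthers, combined stress gave no call for these genes relative to heat (3.35% of genes called in sepals, 0.789% in ovaries and 1.13% in stigmas) or relative to water deficit (15.2, 21.3 and 16.7% in sepals, ovaries and stigmas). Over all organs, combined stress against heat had 1 call in 9 with 2 at an unadjusted p under 0.05, and combined stress against water deficit had 2 calls in 9 with 5. Of all genes tested in sepals, anthers, ovaries and stigmas, 5323, 13414, 4583 and 4743 were that low against heat. Against water deficit 9901, 18726, 11749 and 10367 were, of 33179, 28529, 33336 and 33609 tested. The interaction of heat with water deficit, which asks whether the combined change differs from the sum of the separate changes, had no call in 9 limma tests, with 1 at an unadjusted p under 0.05: E4 in anthers at 0.75 (95% interval 0.09 to 1.42, adjusted p = 0.135). Few genes of any kind were called for it, 0.0422% in sepals, 0.28% in anthers, 0.015% in ovaries and 0.0% in stigmas. In anthers 8206 of the 28529 genes tested for it had an unadjusted p under 0.05 in limma.

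The response of E3 to combined stress differed between organs. Tested directly with limma in 24 libraries per pair of organs, the anther difference exceeded the sepal difference by 1.21 for E3 (95% interval 0.72 to 1.70, adjusted p = 0.000455) and by 0.71 for E4 (0.17 to 1.25, adjusted p = 0.0288), where 48.6% of genes were called. The stigma difference exceeded the sepal difference by 0.79 for E3 (0.40 to 1.18, adjusted p = 0.0133, 7.8% of genes called), and the anther difference exceeded the ovary difference by 0.72 for E3 (0.25 to 1.19, adjusted p = 0.0138, 43.6% called). After rescaling, the E3 difference of anther over sepal was 0.62 and still called (adjusted p = 0.0371), that of E4 turned to -0.15 (adjusted p = 0.655), and the E3 difference of anther over ovary was 0.27 (adjusted p = 0.376). Leaving out the libraries of 1 replicate number kept the E3 call of anther over sepal each time. The E4 call was lost without replicate 1 (0.37, adjusted p = 0.334) or 2 (0.79, adjusted p = 0.111), and the E3 call of stigma over sepal without replicate 1 (0.75, adjusted p = 0.137) or 2 (0.62, adjusted p = 0.259). The E3 call of anther over ovary was lost without any 1 of the 3 (0.64 to 0.83, adjusted p = 0.0528 to 0.103).

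Not called for combined stress were ovary against sepal (8.1% of genes called), anther against stigma (37.0%) and stigma against ovary (0.145%); for E3 in ovary against sepal the difference was 0.49 (0.10 to 0.88, adjusted p = 0.113). For heat none of the 12 organ differences of E3 and E4 was called in limma on FPKM as deposited, in pairs where 14.4% (anther against sepal), 4.18% (ovary against sepal), 3.72% (stigma against sepal), 14.1% (anther against ovary), 8.52% (anther against stigma) and 0.00853% (stigma against ovary) of genes were. For heat, 3 of these E3 differences, those of anther, ovary and stigma over sepal, were 0.51 to 0.53 with adjusted p 0.121 to 0.150 and unadjusted p 0.0101 to 0.0406.

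The balance between E4 and E3 was set out as the ratio of their FPKM within each library, a quantity that no scaling of a library can change. It was computed after the levels were seen and is given without a test. In sepals the ratio was 2.37, 2.94 and 2.98 under combined stress and 2.58, 2.45 and 2.83 under heat. It was 1.90, 1.70 and 1.97 under water deficit, against 1.70, 1.76 and 1.72 in control. The 6 sepal libraries from 38 °C days lay above the 6 from 28 °C days without overlap, with means of 2.69 ± 0.263 and 1.79 ± 0.115 (SD, n = 6 each), a ratio 1.5 times as high at 38 °C. Control sepal replicate 3, low for both genes, had a ratio between those of the other controls.

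In the other organs the ratio did not separate by temperature. In anthers it was 3.06 ± 0.449 at 38 °C and 3.81 ± 0.594 at 28 °C, in ovaries 2.74 ± 0.434 and 2.92 ± 0.575, and in stigmas 1.69 ± 0.288 and 1.71 ± 0.375 (SD, n = 6 each), all with overlapping ranges. In anthers the combined-stress ratios, 3.02, 3.33 and 3.21, lay below the control ratios of 4.93, 3.55 and 3.86. In ovaries the combined-stress ratios were 2.86, 3.38 and 2.85, and the water-deficit ratios were 3.32, 3.72 and 2.94. All of these lay above the control ratios of 2.83, 2.64 and 2.05 and the heat ratios of 2.051, 2.555 and 2.715. The ovary ratio thus separated by watering without overlap, higher with less water, a split that was not tested. In sepals, anthers and stigmas the ratio overlapped between the watering levels. Stigma ratios were 1.66, 1.61 and 1.72 under combined stress, against 1.58, 1.70 and 1.55 in control, with overlap.

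**Figure D4:**
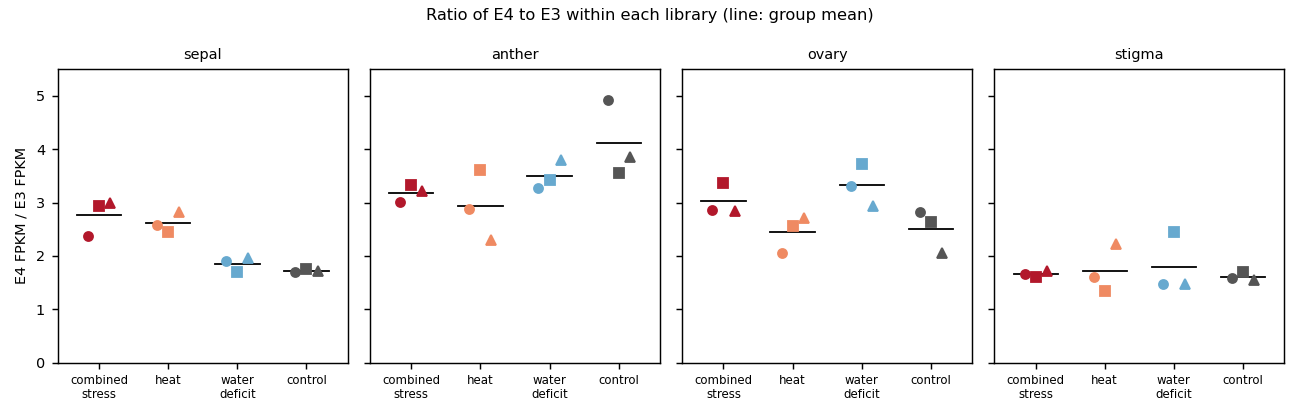
Ratio of E4 FPKM to E3 FPKM within each library (vertical axis, linear from 0), by organ and treatment; the symbol marks the replicate (circle 1, square 2, triangle 3) and the line the group mean. In sepals the combined-stress and heat libraries (2.37 to 2.98) stand above the water-deficit and control libraries (1.70 to 1.97). In the other organs the 38 °C and 28 °C libraries overlap. In ovaries the combined-stress and water-deficit libraries (2.85 to 3.72) stand above the heat and control libraries (2.05 to 2.83).

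Genes whose levels ran most like those of the phytochromes and FT2a over the 48 libraries were found by Pearson's r of log2(FPKM + 1) among 38894 genes. The libraries share organs and treatments, so these values describe mainly the differences between organs. For E4 the highest were GLYMA_18G005100 (r = 0.980) and GLYMA_08G296800 (0.978), for E3 GLYMA_14G034200 and GLYMA_13G364900 (0.978 each), and for FT2a GLYMA_14G042700 (0.967) and GLYMA_15G151700 (0.961). The tables do not annotate these identifiers.

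A further 27 identifiers were listed from general knowledge of soybean flowering loci; no source used here annotates them, so they are given no names or roles. Of these, 8 were listed at 0 in all 48 libraries and 15 reached 1 FPKM in at least 1 group mean. Tested were 13 in sepals, 12 in anthers, 15 in ovaries and 14 in stigmas. Water deficit gave no call in any organ. Combined stress gave no call in sepals, 5 higher and 1 lower in anthers, 3 higher and 1 lower in ovaries, and 4 higher and 1 lower in stigmas. Of all genes tested, 24.1% were called in sepals, 62.4% in anthers, 27.5% in ovaries and 26.0% in stigmas, so the 6 calls among 12 tested in anthers were no larger a share than over all genes. After rescaling, GLYMA_06G040400 alone of the 5 higher anther calls was still called, and the other 4 had adjusted p of 0.0992 to 0.829. Their median log2 difference under combined stress was 0.12 in sepals, 0.49 in anthers, 0.12 in ovaries and 0.19 in stigmas, beside medians over all genes tested of -0.10, 0.61, -0.02 and -0.01. Heat gave 2 calls among 15 in ovaries and 3 among 14 in stigmas, all higher, and none in sepals or anthers; 16.8% of all genes were called in ovaries and 13.9% in stigmas.

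GLYMA_04G050200 had the largest rise among those called in combined-stress ovaries, where it averaged 10.0 ± 0.791 FPKM, against 5.42 ± 0.512 FPKM in control ovaries (SD, n = 3 each; log2 difference 0.78, limma adjusted p = 0.000410). It also rose in combined-stress stigmas, at 8.77 ± 1.41 FPKM against 4.58 ± 0.204 FPKM in control stigmas (0.80, adjusted p = 0.00655), and under heat in ovaries (0.64, adjusted p = 0.00293) and stigmas (0.82, adjusted p = 0.0113). GLYMA_06G040400 had the largest change among those called in combined-stress anthers, at 26.5 ± 6.78 FPKM against 7.55 ± 1.95 FPKM in control anthers (1.68, adjusted p = 8.25e-05), and 0.95 after rescaling (adjusted p = 0.00293). GLYMA_12G060200 fell in combined-stress anthers to 18.9 ± 4.95 FPKM, against 42.4 ± 5.16 FPKM in control anthers (-1.15, adjusted p = 0.000280), and still after rescaling (-1.89, adjusted p = 0.000142). It also fell in combined-stress stigmas, to 1.11 ± 0.398 FPKM, against 2.80 ± 0.319 FPKM in control stigmas (-0.86, adjusted p = 0.0207).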

How the data were processed

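RNA was sequenced as paired reads of 150 bases, and the authors aligned them with HISAT2 2.2.1, per the submitters' processing notes. Neither the counting tool nor the genome build or annotation is named in the sources used here. The authors deposited FPKM, 1 table per organ. FPKM was taken as 1 scale across the 4 tables; between libraries, 7.04 to 21.0% of the low-valued genes compared shared a common ratio, which gave relative depth and does not settle the scale of the rest.

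limma 3.58.1 (R 4.3.3) was run per organ, over 12 libraries, on log2 values of FPKM + 1 computed from the deposited tables, using its trend and robust options. Genes with a mean of at least 1 FPKM in at least 1 group were tested, and calls used a Benjamini-Hochberg adjusted p under 0.05 over all of them. Organs were compared on the 12 control libraries, and organ differences in response on 24 libraries. The fits were also run on simulated data with independent noise and few changed genes. That setting lacks the shift of most genes seen in combined-stress anthers, so it does not bear on the anther calls. The labels call each library a biological repeat, pooled from several plants; p-values measure the spread between these pools. Python 3.11.15 with pandas 2.3.3 computed levels and ratios.

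The 8 genes, the 27 further identifiers and the tests were chosen with earlier results of these data known. Genes named among the further identifiers had to be called, largest in change and without overlap; at most 2 that rose and 2 that fell are named over all comparisons, so fewer are named than that allows. Sequences were not analysed here. Alternatives were a pseudocount of 0.1, no filter, a filter of 5 FPKM, median-of-ratios rescaling, a replicate block and each library left out; leaving out anther-enriched genes and the ratio of E4 to E3 were added after seeing the data.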

Additional observations from a re-analysis of the deposited data

Results flagged for a closer look

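Between organs, 4 differences in the response to combined stress passed limma's test of the difference itself. They were 1.21 for E3 and 0.71 for E4 in anther over sepal, 0.79 for E3 in stigma over sepal, and 0.72 for E3 in anther over ovary, all on the log2(FPKM + 1) scale. After median-of-ratios rescaling the E4 difference of anther over sepal was -0.15 (adjusted p = 0.655) and the E3 difference of anther over ovary 0.27 (adjusted p = 0.376), neither called. All but the E3 difference of anther over sepal also lost their call when the libraries of some replicate number were left out. Anther responses as deposited sit on a median gene of 0.61, compared with -0.10 in sepals.

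The ratio of E4 to E3 under combined stress, taken on FPKM without a pseudocount, moved in opposite directions in different organs. On the log2 scale it was 0.67 above control in sepals, with all 3 combined-stress libraries above all 3 controls, and 0.28 above control in ovaries, again without overlap. In anthers it was -0.36, with all 3 combined-stress libraries below all 3 controls. The anther direction depends on the scale: on log2(FPKM + 1), E4 exceeded control by 0.90 and E3 by 0.79, the same order as in sepals and ovaries. The difference between these organs was not tested.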

How the results depend on the processing

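Over the 4 organs, no alternative gave water deficit or the interaction a call among these genes. For combined stress against control, the members called became 0 in sepals with no filter, with rescaling and without anther-enriched genes. In anthers they became 0 with rescaling and 1 under the filter of 5 FPKM, which left E3 untested there. In stigmas they became 0 under the replicate block (E4 limma adjusted p = 0.0546). Same-numbered libraries of an organ were compared between treatments, and of 18 pairs per organ, 0 to 3 deviated together (r over 0.1). Pairs with different numbers were not compared, so this does not settle whether replicate numbers pair the libraries. Same-numbered libraries of different organs were not checked, and the main tests between organs took them as independent. In anthers, rescaling left 0 called against heat and 0 against water deficit, leaving out anther-enriched genes 0 and 1, and the filter of 5 FPKM 1 against water deficit. In stigmas rescaling gave 1 under heat and 1 for combined stress against water deficit. Between control organs, no filter gave 4 called in each organ against sepal, since FT2a and FT5a then entered; rescaling gave 1 for anther against ovary and 1 against stigma (E4 0.27, reversed); stigma against ovary had 0 under pseudocount 0.1, no filter, rescaling and the replicate block. For organ differences, rescaling gave 1 for heat and 1 for combined stress in anther over sepal (E4 -0.15, reversed) and 0 for combined stress in anther over ovary. E4 in heat anthers was -0.0816 with rescaling. Adding 1 to both values moved the anther ratio at 38 °C against 28 °C to 0.0165, compared with -0.317. The causes were not tested.

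Leaving out 1 library gave 0 to 1 called for heat in sepals, ovaries and stigmas, for combined stress in sepals and ovaries, for combined stress against heat in anthers and against water deficit in sepals and stigmas; 0 to 2 for combined stress in stigmas; and 1 to 2 against water deficit in anthers. Leaving out a replicate number gave 0 for stigma against ovary in control and for combined stress in anther over ovary, 1 to 2 in anther over sepal and 0 to 1 in stigma over sepal. Signs turned at near-zero values: E4 in heat anthers -0.00433 to 0.255, E3 in combined-stress ovaries -0.0533 to 0.146 and E3 in control stigma against ovary -0.0421 to 0.182. The ratio in sepals stayed at 0.55 to 0.64. Counts over all genes changed by over 1.5 times under some alternative in 35 of 42 comparisons. Depth is unknown, so it cannot be said how far low values of FT5a, Dt1 and E1 are limited by it.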
